A study of Homo sapiens with 2 samples.

Results

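The MEIS, PBX and PKNOX genes encode homeodomain transcription factors of the TALE class, and they are described here by the NeuroD1 peaks at and around them in IMR-32 neuroblastoma cells. The 8 genes were MEIS1, MEIS2, MEIS3, PBX2, PBX3, PBX4, PKNOX1 and PKNOX2, of 20037 protein-coding genes in RefSeq. A peak was counted for a gene when it overlapped the gene body or lay within 50 kb of either end. For MEIS1, all peaks along chr2:66300000-67500000 were added, because the backgrounds there were high. Together these rules took 48 of the 6183 peaks in the list. The genes and the stretch were chosen by the peaks called there and their backgrounds, so these values are given as a description with no test.

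TALE homeodomain proteins carry a short extra loop in the homeodomain and bind DNA mainly as partners of each other and of HOX proteins. PBX proteins form dimers with MEIS or PKNOX proteins, and the MEIS or PKNOX partner also helps to keep PBX in the nucleus. MEIS1 and MEIS2 are known from the sympathoadrenal lineage and from neuroblastoma, and NeuroD1 is a basic helix-loop-helix factor that drives neuronal differentiation through E-box sequences of the form CANNTG.

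Binding of NeuroD1 was measured with ChIP-seq, in which DNA bound to a protein is recovered with an antibody and sequenced, in wild-type IMR-32 cells with no treatment named in the labels. IMR-32 is an established human neuroblastoma line with amplified MYCN. The series holds 1 ChIP library and 1 input library, the latter not analysed here, so there was no replicate and the values describe this library. The labels name a NeuroD1 antibody, whereas the supplementary ChIP-seq methods name an antibody to H3K27Ac, and the list was used as labelled.

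The fold enrichment of a peak is the ChIP pileup at its summit plus 1, divided by the background around it plus 1. The ChIP reads and the background behind each fold were solved from the fold and the Poisson p-value. Over all 6183 peaks, the median fold enrichment was 6.79, with quartiles of 5.79 and 8.68. The median summit held 17 ChIP reads over a background of 1.31 reads. The total number of reads in the library is unknown. The intervals of reads and folds below are exact 95% Poisson intervals that cover the counting error of the ChIP reads only. For the folds, the background was held fixed, so its own error is left out.

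Of the 8 genes, 5 had a peak in the body or within 50 kb, which were MEIS1, MEIS3, PBX4, PKNOX1 and PKNOX2. MEIS2, PBX2 and PBX3 had none. The same rule found a peak at 39.9% of all protein-coding genes. A peak overlapped the body of 4 of the 8 genes, against 16% of all protein-coding genes. The 5 genes held 15 peaks in all, of which 10 belonged to MEIS1 and 5 to the other genes. These 15 peaks fell into sets with no overlap in background. At 7 peaks the background was 1.04 to 2 reads, and at the remaining 8, all at the 3′ end of MEIS1, it was 48.4 to 67 reads. The 7 peaks of low background had a median fold enrichment of 7.24, from 5.79 to 10.1, with 11 to 22 ChIP reads each. Of these, 5 lay above the median of all peaks.

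MEIS1 encodes a DNA-binding partner of PBX and HOX proteins. Its body runs along chr2:66435125-66573869 on the plus strand of GRCh38, a length of 138.745 kb. At its 5′ end lay 2 peaks of low background. The one nearer to the gene, at chr2:66434958-66435203, covered the listed start site, with its summit at −63 bp from it. It held 19 ChIP reads (95% interval 11.4 to 29.7) over a background of 1.31, a fold enrichment of 8.48 (5.28 to 13.0). Its rank by fold was 1693 of 6183. The other, at chr2:66433329-66433655, had its summit 1597 bp upstream of the MEIS1 start and overlapped MEIS1-AS3, a lncRNA gene that is read in the opposite direction. That peak held 22 reads (13.8 to 33.3) over a background of 1.46, a fold of 9.17 (5.90 to 13.7), and ranked 1223. The intervals of these neighbouring peaks overlap almost entirely, so neither stands above the other at this depth.

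Both peaks fell on promoter windows, each taken from RefSeq as the stretch from 250 bases before to 50 bases after a start site. The 250 bases before the start are shown 5′ to 3′ for the genes with a peak there, from RefSeq GRCh38.p14, so that the place of each peak against the gene start can be read. Capitals mark the bases inside the called peak. The windows lie at chr2:66434875-66435124 on the plus strand for MEIS1 and chr2:66433471-66433720 on the minus strand for MEIS1-AS3.
MEIS1: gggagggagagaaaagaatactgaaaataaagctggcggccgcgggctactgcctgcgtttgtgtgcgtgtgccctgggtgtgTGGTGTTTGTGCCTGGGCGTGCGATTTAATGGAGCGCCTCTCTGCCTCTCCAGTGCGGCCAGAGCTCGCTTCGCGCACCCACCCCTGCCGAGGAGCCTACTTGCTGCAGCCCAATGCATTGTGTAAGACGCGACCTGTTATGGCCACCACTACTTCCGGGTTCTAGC
MEIS1-AS3: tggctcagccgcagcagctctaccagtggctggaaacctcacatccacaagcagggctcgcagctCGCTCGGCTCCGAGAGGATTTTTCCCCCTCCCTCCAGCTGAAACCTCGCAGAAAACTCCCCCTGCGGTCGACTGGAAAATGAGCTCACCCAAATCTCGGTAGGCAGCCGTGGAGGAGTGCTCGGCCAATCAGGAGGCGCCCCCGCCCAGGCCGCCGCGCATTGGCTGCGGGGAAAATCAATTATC

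The peak at MEIS1 covered 217 bases of its 300-base window and the peak at MEIS1-AS3 covered 235. The MEIS1 window held no CANNTG on either strand. The MEIS1-AS3 window held 1, a CAGCTG whose first base stood at −151 from the start of MEIS1-AS3. It lay inside the peak, with its centre 90.5 bp from the summit. Both strands were searched. CANNTG was present in 68.7% of all 35116 promoter windows and CAGCTG, which is 1 form of CANNTG and its own reverse complement, in 17.9%. Neither MEIS1 window held the MEIS core letters TGACAG, which were in 15.8% of all windows, or the PBX and MEIS composite letters TGATTGAC, which were in 0.575%. A match is a description of letters and not a shown site, and a missing match says only that these letters are not in the window.

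From the start-site peak, no peak was called over the next 111.59 kb of MEIS1. The peaks then resumed with a different make-up near the 3′ end. The first, at chr2:66546794-66547003, held 147 ChIP reads (124 to 173), but over a background of 60, so that its fold enrichment was 2.38 (2.01 to 2.79). The second, at chr2:66569319-66569828, held 175 reads over 55.2, a fold of 3.07. The third, at chr2:66571963-66572177, held 119 reads over 57.1, a fold of 2.03. All 3 lay inside the MEIS1 body and ranked 6101 or lower by fold.

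Beyond the 3′ end, 5 further peaks lay over a span of 7.466 kb, the farthest starting 7.518 kb after MEIS1, in LINC01798, a lncRNA gene that starts just after MEIS1. The nearest, at chr2:66574752-66576375, was the widest peak of the whole list at 1624 bp. It held 191 reads (165 to 220) over a background of 50.5, a fold of 3.65 (3.15 to 4.20). The farthest, at chr2:66581387-66582217, held 178 reads over 50.8, a fold of 3.39. The 3 between them had 100 to 173 reads and folds of 2.0 to 2.51.

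The order of these peaks turned on the measure used. By −log10 q, which grows with the reads, the widest peak ranked 142 of 6183 with a value of 43.7. By fold enrichment the same peak ranked 6050. The 5′ peaks moved little between the scales, from 1693 by fold to 1825 by −log10 q at the start site and from 1223 to 1311 at MEIS1-AS3. Thus MEIS1 held its highest folds at the 5′ end and its most reads at the 3′ end.

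MEIS2, which encodes a close relative of MEIS1, had no peak. Its body at chr15:36889204-37101311 is 212.108 kb long, and the nearest peak lay 1150.88 kb away with 9 reads. The minus-strand gene has 2 listed start sites, and neither window held a CANNTG. Of protein-coding genes over 200 kb long, 45.8% had a peak by the 50 kb rule.

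MEIS3, the shortest of the MEIS genes at 19.11 kb, lies at chr19:47403124-47422233 on the minus strand. Its only peak, at chr19:47422063-47422253, sat at the upstream of its 2 listed start sites, with the summit 47 bp downstream of that site. It held 13 ChIP reads (6.92 to 22.2) over the lowest background of the list, 1.04, a fold enrichment of 6.75 (3.82 to 11.2). This is close to the median of all peaks, and the peak ranked 3173 by fold. The background of 1.04 was shared by 2089 peaks, 33.8% of those solved, with the PBX4 body peak and the PKNOX1 peak among them. It is thus a common lowest value and not particular to MEIS3. The next peak lay 72.566 kb from the gene with a fold of 7.08. The 250 bases before the start, at chr19:47422234-47422483, are shown with the 20 bases inside the peak in capitals. The window held none of the motifs searched.
MEIS3: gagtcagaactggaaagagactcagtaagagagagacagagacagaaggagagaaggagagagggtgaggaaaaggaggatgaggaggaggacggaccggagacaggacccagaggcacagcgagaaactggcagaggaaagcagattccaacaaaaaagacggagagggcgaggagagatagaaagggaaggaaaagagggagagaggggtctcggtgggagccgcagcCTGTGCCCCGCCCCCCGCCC

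The PBX genes encode the partners that MEIS and PKNOX proteins bind. PBX2, a gene of 5.47 kb at chr6:32184733-32190202, had no peak, and the nearest lay 1504.2 kb away with a fold of 5.89. PBX3, of 220.005 kb at chr9:125747373-125967377, had none either, and its nearest peak was 505.802 kb away with the same fold of 5.89 and 17 reads. The list therefore gives no value at these genes, and a site too weak to be called cannot be told from a site that was not bound. How many reads lay around these genes is not given by the list either.

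The PBX2 window was the only one among the listed windows of the 8 genes to hold a CANNTG. Its letters were CAGATG, a form of E-box found in 14.7% of all windows, starting at −184 from the start. The 250 bases before the PBX2 start, at chr6:32190203-32190452 on the minus strand, are shown with this match in capitals, because no peak was called there despite it. The PBX3 window held no CANNTG and 1 TGACAG, at −20 from the start.
PBX2: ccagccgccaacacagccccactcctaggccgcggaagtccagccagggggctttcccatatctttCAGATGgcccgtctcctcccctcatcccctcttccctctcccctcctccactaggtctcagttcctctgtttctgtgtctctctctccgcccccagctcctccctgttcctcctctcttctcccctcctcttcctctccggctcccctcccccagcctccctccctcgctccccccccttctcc

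PBX4 had the highest fold enrichment of the 15 peaks. Its body lies at chr19:19561713-19618687 on the minus strand. The peak at chr19:19578367-19578663 was inside it, 40151 bp downstream of the listed start. It held 20 reads (12.2 to 30.9) over a background of 1.04, a fold of 10.1 (6.37 to 15.4), and ranked 870 by fold. The interval reaches down to 6.37, below the median of all peaks, so that even this highest fold is not set apart from a typical peak by its counting error.

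A further peak, at chr19:19663848-19664040, was 45.161 kb upstream of the PBX4 body, in the promoter window of ATP13A1, which encodes a transport ATPase of the endoplasmic reticulum. It held 15 reads (8.40 to 24.7) over 1.17, a fold of 7.24. It was the outermost peak that the 50 kb limit kept. The peak just outside the limit, 50.003 kb from PBX4 at chr19:19668690-19668836, had a fold of 5.79 and 11 reads. The PBX4 start itself had no peak within 1 kb, and its window held none of the motifs.

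PKNOX1 and PKNOX2 encode the PREP proteins, which bind PBX in place of MEIS. PKNOX1 lies at chr21:42974562-43033931 on the plus strand, and its only peak, at chr21:42974147-42974404, ended 158 bp before the gene. The summit was 226 bp upstream of the start. It held 11 ChIP reads (5.49 to 19.7) over 1.04, a fold of 5.79 (3.14 to 9.97), the lowest of the 7 low-background peaks. Its −log10 q of 4.24 was the lowest of the 15. The 250 bases before the start, at chr21:42974312-42974561, are shown with the 93 bases inside the peak in capitals. The window held no CANNTG, and G and C made up 78.7% of it.
PKNOX1: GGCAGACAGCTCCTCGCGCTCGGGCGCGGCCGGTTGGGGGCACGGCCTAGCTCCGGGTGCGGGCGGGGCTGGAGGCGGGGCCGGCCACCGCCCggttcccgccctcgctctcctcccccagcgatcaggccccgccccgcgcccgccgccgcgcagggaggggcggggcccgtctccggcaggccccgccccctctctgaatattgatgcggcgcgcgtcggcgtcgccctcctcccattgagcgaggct

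PKNOX2, the longest of the 8 genes at 268.639 kb, lies at chr11:125164751-125433389. Its peak at chr11:125287726-125287991 was deep in the body, 123.188 kb from one end and 145.45 kb from the other. It held 20 reads (12.2 to 30.9) over a background of 2, a fold of 6.87 (4.32 to 10.4). The reads were as many as at the PBX4 body peak, and the lower fold came with the higher background. No start site of PKNOX2 was listed in the promoter table.

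Start sites were listed for 7 of the 8 genes. MEIS1, MEIS3 and PKNOX1, 3 of these 7, had a peak within 1 kb of one, against 15.6% of the 15843 protein-coding genes with a listed site. The summits at MEIS1, MEIS3 and PKNOX1 stood at −63, 47 and −226 bp from the start. None of these 3 windows held a CANNTG. Across all promoter windows, a CANNTG was in 56.8% (Clopper-Pearson 95% interval 54.9 to 58.6) of the 2921 that overlap a peak. It was in 69.8% of the 32195 that do not. CAGATG was in 8.73% against 15.2%, and CAGCTG in 18.7% (17.3 to 20.1) against 17.9%. A peak may cover only part of such a window. Within 50 bp of 1638 promoter summits, CANNTG was in 27.1%, CAGATG in 4.33% and CAGCTG in 7.94%. In shorter parts of the 32195 windows without a peak, the shares were 33.9%, 5.13% and 6.04%. Over its NeuroD1 binding sites as a whole, the paper reports enrichment of NeuroD1 motifs, which these promoter windows do not test. The windows that overlap a peak also had a higher median GC content, 68.0% against 57.3%, and the part of base composition in the motif shares was not tested.

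**Figure D1:**
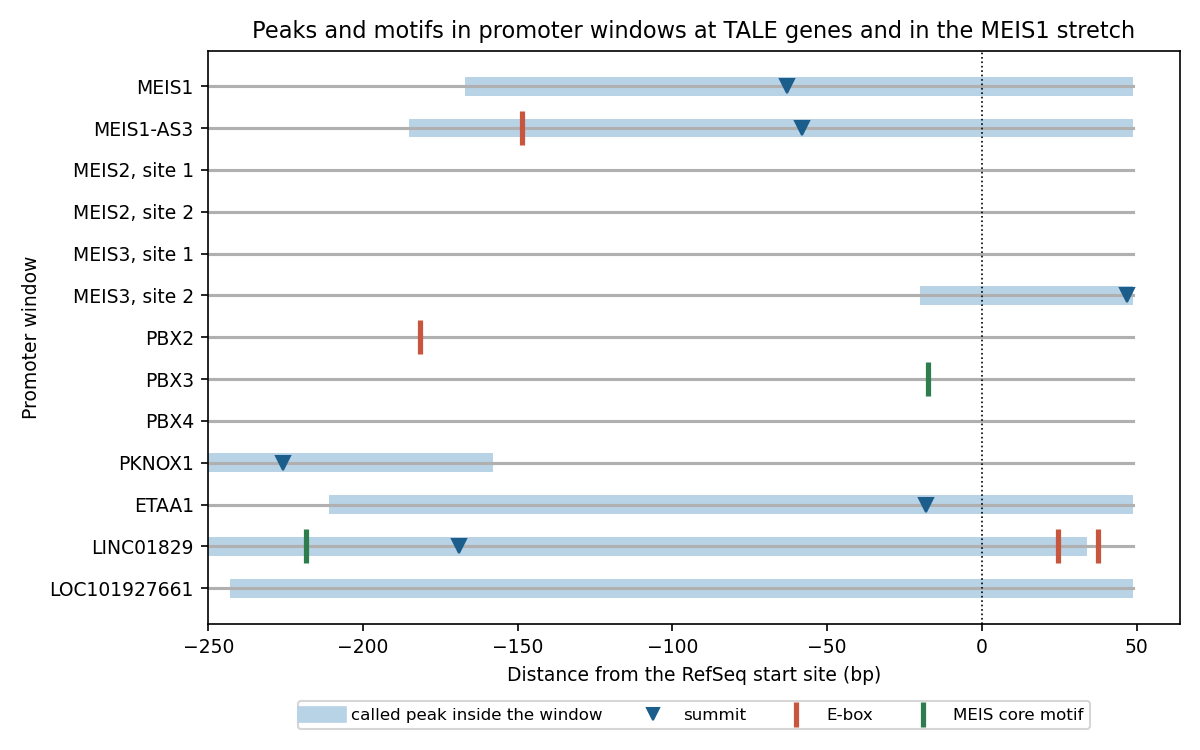
Called peaks (blue bars), summits (triangles), CANNTG E-boxes (red ticks) and TGACAG matches (green ticks) in the promoter windows of the MEIS, PBX and PKNOX genes and of genes of the chromosome 2 stretch, by distance from the RefSeq start site in bp. The MEIS1, MEIS3 and PKNOX1 windows hold a peak and no tick, and the PBX2 window holds a red tick and no peak. The MEIS1-AS3 window holds a peak and 1 red tick, and the LINC01829 window a peak, 2 red ticks and 1 green tick.

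The chromosome 2 stretch around MEIS1 held 43 peaks. Only the 2 at the 5′ end of MEIS1 had a low background. The other 41 began at 66546794, inside MEIS1, and ended at 67452111, a span of 905.318 kb with 45.3 peaks per Mb. The rest of chromosome 2 outside the high-background peaks held 449 peaks, or 1.86 per Mb, with a median fold enrichment of 7.03 and a median background of 1.33. These densities do not share a like limit of calling, since smaller folds can be called over a higher background.

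The 41 peaks had a median background of 46.0 reads, from 35.8 to 67, and a median of 136 ChIP reads, from 79 to 272. Their median fold enrichment was 2.63, from 1.90 to 6.73. Each of the 41 held more reads, and had a lower fold, than the median peak of the list. The higher reads follow from the grouping, since a called peak holds more reads than its background, here 35.8 or more. Smaller folds can also be called where the background is high. No peak of the list had a background between 7 and 33.4. In all, 112 of the 6183 peaks had a background over 20, all on chromosome 2, and the stretch held 36.6% of them.

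The change of level lay between neighbouring peaks at each side. On the MEIS1 side, the last low-background peak was at the start site and the first high-background peak was 111.762 kb into the gene, with no called peak between them to place the change more closely. On the far side, the last high-background peak was followed after 64.481 kb by a peak at chr2:67516593-67516741 with a background of 1.75, 14 reads and a fold of 5.35. Before the stretch, the nearest peak was 760.098 kb away and had a background of 2.

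**Figure D2:**
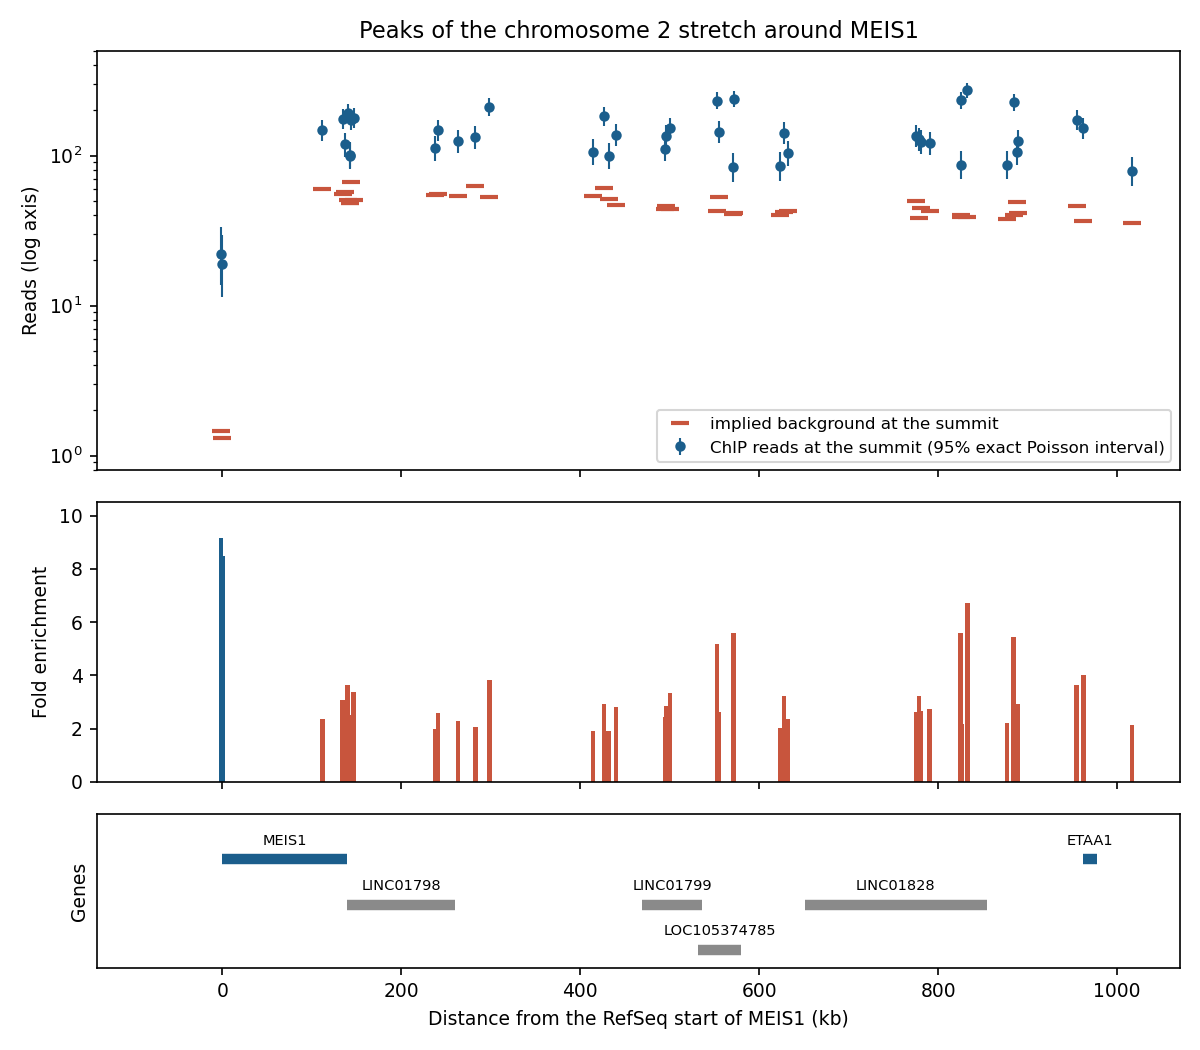
Peaks of the chromosome 2 stretch by distance from the MEIS1 start in kb. The top panel gives ChIP reads (points, 95% exact Poisson intervals) and implied background (dashes) on a log axis, the middle panel the fold enrichment and the bottom panel the genes. Reads and background both step up between the MEIS1 5′ end, with 19 and 22 reads, and the first peak near its 3′ end, with 147 reads over a background of 60.

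Along the stretch, the background was not level. Its median was 57.1 in the 3 MEIS1 body peaks, 50.5 in the next 5, 53.1 in the 14 after these and 41.0 in the last 19. Over the 41 peaks, the background fell with position, with a Spearman correlation of −0.795. The fold enrichment rose with the width of the peak, with a correlation of 0.784. A higher summit tends to stay above the limit of calling over more bases, so this link is partly built into the call. These correlations are descriptions, since the peaks share 1 library and neighbouring peaks share their local background.

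Among the 41 high-background peaks, the highest folds were far from MEIS1. A fold of 5 or more was reached by 5 of them, which lay 552.786 to 884.187 kb from the MEIS1 start and were 696 to 825 bp wide. The strongest, at chr2:67267306-67268130 in the lncRNA gene LINC01828, held 272 reads (241 to 306) over a background of 38.8, a fold of 6.73 (5.95 to 7.57). It ranked 13 by −log10 q and 3437 by fold. Of the 41 peaks, 6 were among the top 100 by −log10 q and 24 among the top 1000, and 0 were among the top 1000 by fold. The lowest fold outside the high-background group was 3.08, and 28 of the 41 lay below it. The fold needed for a call differs between these groups. In the stretch, a fold of 1.98 over a background of 41.0 had a −log10 q of 4.63. The PKNOX1 peak, with a fold of 5.79 over 1.04, had 4.24.

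Of the 17 annotated genes of the stretch, 2 code for proteins, MEIS1 and ETAA1, the latter an activator of the ATR kinase at replication forks. Of the 41 high-background peaks, 4 overlapped a protein-coding gene, 3 in MEIS1 and 1 at ETAA1, 23 overlapped lncRNA genes alone and 14 overlapped no gene. LINC01798 and LINC01828 each held 7, LOC105374785 held 4, and LINC01799 held 3. LINC01829 and LOC101927661 also held 3 each, in part the same peaks, since these genes overlap LINC01828.

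The ETAA1 peak, at chr2:67397122-67397947, covered the ETAA1 start with its summit at −18 bp. It held 152 reads (129 to 178) over a background of 36.5, a fold of 4.0 (3.40 to 4.69). It held more reads than the MEIS1 start-site peak and had a lower fold. The 250 bases before the ETAA1 start, at chr2:67397083-67397332 on the plus strand, are shown with the bases inside the peak in capitals. The window held no CANNTG.
ETAA1: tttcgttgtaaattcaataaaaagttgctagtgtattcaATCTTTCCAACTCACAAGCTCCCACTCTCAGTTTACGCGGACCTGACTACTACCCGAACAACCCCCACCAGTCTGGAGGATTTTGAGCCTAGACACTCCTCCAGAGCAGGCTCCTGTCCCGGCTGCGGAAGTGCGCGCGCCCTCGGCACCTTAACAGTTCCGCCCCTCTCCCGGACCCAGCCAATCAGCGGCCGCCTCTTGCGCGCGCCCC

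High backgrounds were also measured around MYCN, on the same chromosome. Within 0.5 Mb of MYCN, 24 peaks had a background over 20. Their median background was 45.9, from 36.9 to 60, and their median fold was 2.54. The stretch around MEIS1 had medians of 46.0 and 2.63, close to these. All 112 peaks of high background had a median background of 50.2, from 33.4 to 98.0, so some exceeded the highest value at either place. Extra copies of MEIS1 together with MYCN have been described in IMR-32 cells. Copy number was not measured here and its part in the background was not tested.

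**Figure D3:**
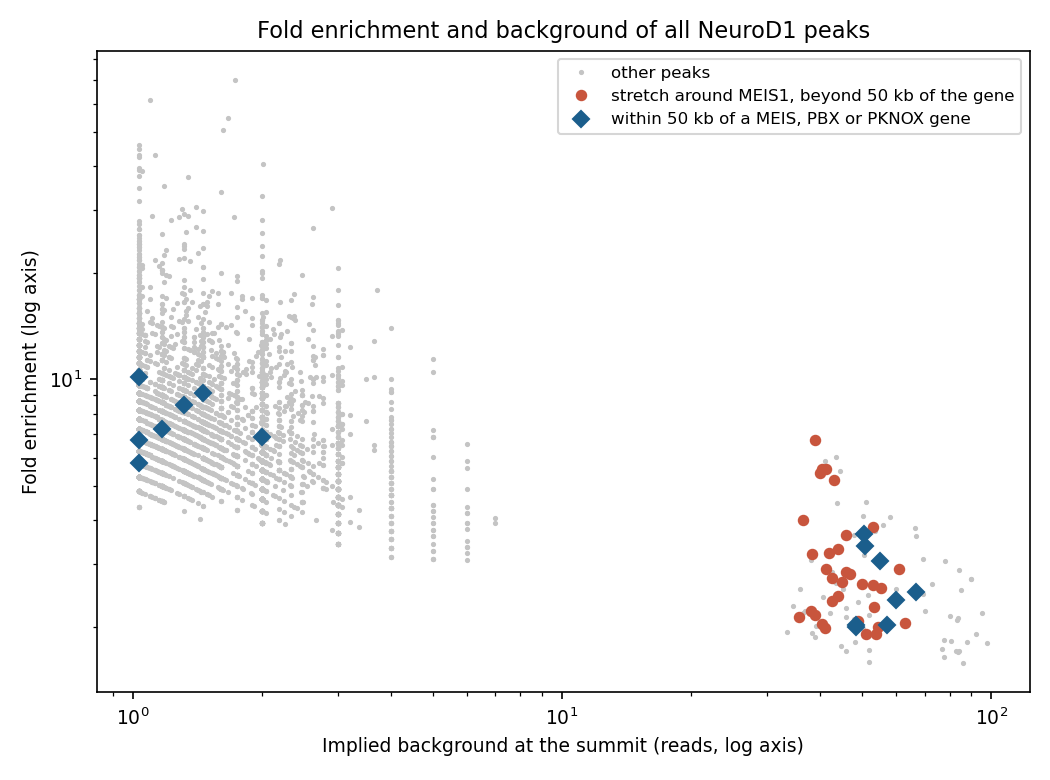
Fold enrichment against implied background at the summit, both on log axes, for the peaks whose background was solved. Diamonds are the 15 peaks at the MEIS, PBX and PKNOX genes and circles the other high-background peaks of the MEIS1 stretch. Of the diamonds, 7 lie at backgrounds up to 2 and 8 at 48.4 or more, and no peak of the list lies between backgrounds of 7 and 33.4.

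Of 9 other TALE genes, 2 had a peak. TGIF1, which encodes a TALE repressor of TGF-β and retinoid signalling, had 1 at chr18:3448366-3448511, with 10 reads, a fold of 5.31 and its summit 14 bp upstream of a start site. TGIF2, its relative, had 1 at chr20:36573372-36573657, with 12 reads and a fold of 4.25, its summit 59 bp downstream of a start site. The remaining 7, the 6 IRX genes and MKX, had none. With these, 7 of 17 TALE genes had a peak, a share near the 39.9% of all protein-coding genes under the same rule, and none of their peaks exceeded the PBX4 fold of 10.1. PBXIP1, which encodes a PBX-binding protein, had 0 peaks in its body and 5 within 50 kb. The highest of the 5, of 85 reads and 28.1-fold, was 44.6 kb away beside other genes.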

How the data were processed

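The authors called NeuroD1 peaks in 1 ChIP library of IMR-32 cells. The processing notes name BWA 0.7.17, MACS2 2.2.7 and hg38, whereas the peak names carry macs3. The q threshold and the control used are not given in the sources used here. The deposited fold enrichment is a ratio of pileup to background, each plus 1. The −log10 values deposited by the authors are those of the p-value and the q-value. The deposited score is a whole number derived from the −log10 q, and a last deposited column equals the fold divided by the width.

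ChIP reads and background were solved from the −log10 p and the fold, each read counting 0.980, a step read from the pileups. This gave whole reads for 6182 of 6183 peaks. The solving step was also run on 1000 simulated peaks. It returned the simulated reads in 100% and a background no more than 1 percent off in 100%. Simulated peaks show only that the step can be inverted. They cannot show that the formula or the read weight holds for the deposited peaks. Intervals are exact Poisson or Clopper-Pearson intervals at 95% and cover counting error only, with the background held fixed for the folds. No test was made, since there was 1 library. Genes, start sites and promoter sequences came from RefSeq GRCh38.p14. The named genes were the 8 genes, 9 other TALE genes, PBXIP1, genes that a peak overlaps or faces, and protein-coding genes of the stretch. The result for 1 further gene is not reported here. The genes, the stretch and the lists were chosen with earlier results of these data known. The alternatives were other distances, stricter −log10 q and fold, the summit in place of the interval, a read weight of 1, MEIS1 with 50 kb on each side, and rank by −log10 q. The work ran in Python 3.11.15 with scipy 1.17.1, pandas 2.3.3, numpy 2.4.6 and matplotlib 3.10.9.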

Additional observations from a re-analysis of the deposited data

How the results depend on the processing

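The number of genes with a peak stayed at 4 or 5 under all alternatives run. The number of peaks at them fell from 15 to 7 with the gene body alone and to 7 with a fold enrichment of at least 5, which leaves out the 8 high-background MEIS1 peaks. A fold of at least 5 also took the chromosome 2 stretch from 43 peaks to 7, its median background from 46.0 to 40.0 and its median fold from 2.67 to 5.58. MEIS1 with 50 kb on each side in place of the stretch gave 10 peaks with a median background of 50.7. The best rank among the 15 peaks was 870 by fold, at PBX4, and 142 by −log10 q, at the MEIS1 3′ end. The other 19 values of the main results moved by less than 1.5 times for counts or within the interval of the median. Of the single genes and peaks, 49 values stayed and 14 moved. A −log10 q of at least 5 removed the PKNOX1 peak. The motif shares around the summits of all 15 peaks, planned with 2 window sizes, were not run, because no genome sequence was used here. No paired analysis was possible because the series holds a lone ChIP library. With 11 to 22 reads at each low-background peak, folds of these genes cannot be ranked.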
